A study of Homo sapiens with 6 samples.

Results

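The ATF4 amino acid stress response was followed here as a set of 39 genes, named by symbol from a list of known ATF4 targets and partners, out of 21512 rows of a gene table of 6 prostate cancer libraries. All 39 symbols were found, and all 39 averaged 20 counts or more per library, the minimum set for testing, which 13885 genes met. They fall into 10 stress regulators, 10 enzymes of amino acid and one-carbon synthesis, 7 amino acid transporters, 10 aminoacyl-tRNA synthetases, and the genes STC2 and VLDLR. The rule goes by symbol and uses no measured value, but the members were chosen with earlier results of these data known. The libraries came from BicR and LNCaP cells, 1 library for each line under 10 nM dihydrotestosterone (DHT, an androgen), 1 µM bicalutamide (an antiandrogen) and ethanol (the vehicle). LNCaP is an established prostate cancer line that responds to androgen. BicR is given in the labels only as prostate cancer, and how it was derived is not stated there. Before the 24 h of treatment both lines had been kept for 3 days in a medium poor in steroid hormones (2.5% serum treated with charcoal and dextran, no phenol red), so the ethanol and bicalutamide libraries are both androgen-poor.

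ATF4 is a transcription factor whose mRNA is translated more when the translation factor eIF2 is phosphorylated, which happens when amino acids run short, when unfolded protein builds up in the endoplasmic reticulum, or when heme is lacking. Joined to a C/EBP partner, ATF4 binds a composite DNA element before genes that make amino acids, import them and load them onto tRNA, and it also turns on stress regulators such as DDIT3 (also called CHOP) and TRIB3, which can limit growth or lead to cell death. In prostate cancer cells, which synthesise and secrete much protein, the pathway is known to support survival under stress.

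The libraries held between 42162723 and 55917016 counts. Levels are given as CPM, counts scaled to a common library size with TMM factors, so that a level stands relative to the other genes of its library. Luminal prostate markers were present in every library, at summed levels of 10529, 4183 and 4013 CPM in BicR under DHT, bicalutamide and ethanol, and 9324, 3800.2 and 4836 CPM in LNCaP. The 4 basal markers summed to 0.15 to 1.07 CPM and the 5 immune markers to 0.18 to 0.81 CPM, with PTPRC at 0 counts in all 6 libraries. The 5 markers of mesenchyme and endothelium summed to 28.4 to 36.5 CPM in BicR and 42.9 to 55.8 CPM in LNCaP. Most of this was COL1A1, at 24.8 to 26.6 CPM in BicR and 36.4 to 45.9 CPM in LNCaP, while COL1A2 was at 0 in all 6 libraries. The part of these markers in the results was not tested. The LNCaP ethanol library stood apart in 21 endoplasmic reticulum chaperone and stress genes, which summed to 31344 CPM there and to 8767 to 11708 CPM in the other 5 libraries. HSPA5, the main chaperone of that compartment, alone took 0.79% of its counts, against 0.131% to 0.164% elsewhere. The part of this in the members' values was not tested, so LNCaP DHT is also set against LNCaP bicalutamide below, a contrast that does without that library.

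Within BicR, the DHT library held more RNA of the response than either androgen-poor library, whereas within LNCaP the ethanol library held most. The 39 members summed to 19145 CPM in BicR DHT, 15954 CPM in BicR bicalutamide and 14882 CPM in BicR ethanol. In LNCaP they summed to 15479 CPM under DHT, 15544 CPM under bicalutamide and 21198 CPM under ethanol. BicR DHT was the highest of the BicR libraries for 36 of 39 members, against 42.0% of all genes tested, with ATF5, ALDH1L2 and SLC7A5 as the exceptions. LNCaP ethanol was the highest of the LNCaP libraries for 30 of 39 members, against 28.3% of all genes. For 35 of 39 members the DHT library lay above ethanol in BicR and below ethanol in LNCaP, against 24.2% of all genes. The 4 members without that opposition were NUPR1, PSPH, ALDH1L2 and SLC7A5. Since these are bulk RNA libraries, a change in the number of cells of a kind and a change in RNA per cell cannot be told apart.

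**Figure D1:**
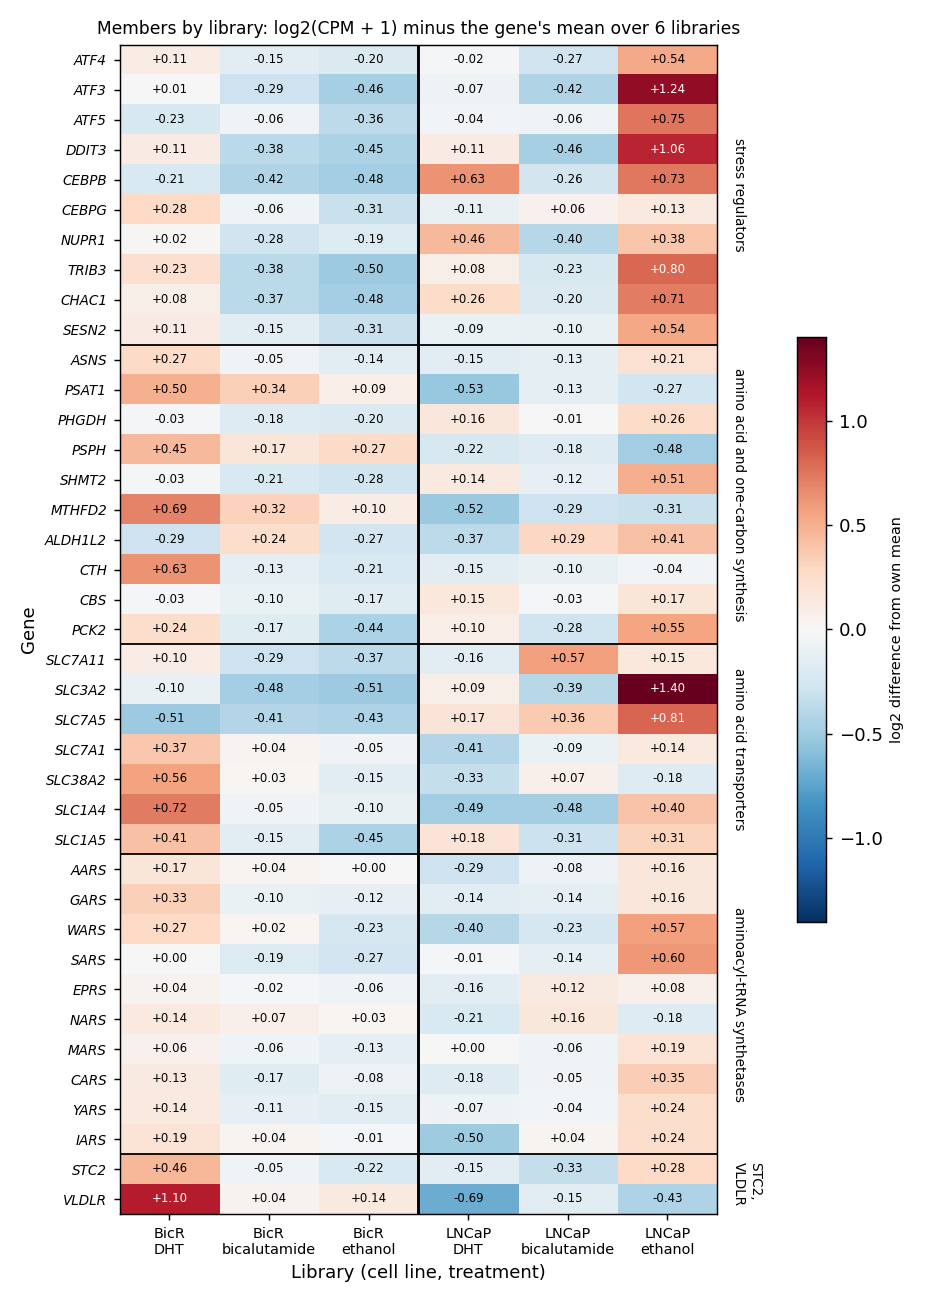
Each cell gives the log2(CPM + 1) of a member in 1 library minus that gene's mean over the 6 libraries (rows, genes by list; columns, libraries; red, above the mean). The LNCaP ethanol column is red for 32 of 39 members and the BicR DHT column for 31 of 39, while the BicR ethanol column is red for 6.

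Over all 6 libraries the highest level fell in LNCaP ethanol for 21 members (20.5% of all genes) and in BicR DHT for 14 (21.3% of all genes). These 2 libraries together held the maximum of 35 of 39 members, against 41.8% of all genes. The other 4 were NUPR1, highest in LNCaP DHT, and SLC7A11, EPRS and NARS, highest in LNCaP bicalutamide. Per gene length, on the authors' RPKM scale averaged over the 6 libraries, the most abundant member was the alanyl-tRNA synthetase AARS at 471 RPKM. PHGDH (326 RPKM), PSAT1 (323 RPKM) and ATF4 (301 RPKM) followed it. The least abundant were SLC7A5 at 5.11 RPKM, VLDLR at 3.57 RPKM and ALDH1L2 at 0.0763 RPKM.

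Promoter sequence was at hand for 16 members, taken from RefSeq on GRCh38.p14 as 250 bases before to 50 bases after the gene start. The core TGATGNAA of the C/EBP-ATF composite element, searched on both strands, was found in 5 of these 16 windows (31.2%) and in 1270 of 35116 windows of the same length (3.62%). The 5 were CHAC1, SLC7A1, AARS, NARS and IARS, so that 3 of 4 synthetase windows held it, 1 of 3 transporter windows, and 0 of 5 windows of synthesis enzymes. A match describes the letters only and does not show binding, and the absence of one covers only this window. The windows with the core are shown because they are where ATF4's own element can be read in member genes, with the matched bases in capitals. In CHAC1, AARS and IARS the element lies on the opposite strand and so reads TTGCATCA, starting 209, 187 and 13 bases before the start. For these 3 the 250 bases before the start are given 5′ to 3′ on the gene's strand.
CHAC1, chr15:40953221-40953470, plus strand: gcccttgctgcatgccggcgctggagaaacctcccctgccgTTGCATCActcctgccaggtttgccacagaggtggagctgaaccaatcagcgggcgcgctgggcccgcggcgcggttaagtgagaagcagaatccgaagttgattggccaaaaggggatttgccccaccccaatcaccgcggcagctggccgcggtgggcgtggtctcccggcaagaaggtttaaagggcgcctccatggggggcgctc
AARS, chr16:70289507-70289756, minus strand: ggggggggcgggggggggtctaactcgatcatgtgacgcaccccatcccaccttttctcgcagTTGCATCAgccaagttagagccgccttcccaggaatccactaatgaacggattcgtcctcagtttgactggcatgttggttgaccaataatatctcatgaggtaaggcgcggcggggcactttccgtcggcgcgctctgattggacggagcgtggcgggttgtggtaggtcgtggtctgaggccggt
IARS, chr9:92293698-92293947, minus strand: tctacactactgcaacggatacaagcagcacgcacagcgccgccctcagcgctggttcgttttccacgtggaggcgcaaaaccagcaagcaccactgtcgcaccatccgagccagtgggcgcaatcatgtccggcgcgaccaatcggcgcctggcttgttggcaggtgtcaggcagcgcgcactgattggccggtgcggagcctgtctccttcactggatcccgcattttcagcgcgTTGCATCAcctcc
In SLC7A1 and NARS the core lies on the gene's own strand, starting 7 and 14 bases after the start, and only the 30 bases around it are given.
SLC7A1, chr13:29595663-29595692, minus strand: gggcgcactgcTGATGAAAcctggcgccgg
NARS, chr18:57621804-57621833, minus strand: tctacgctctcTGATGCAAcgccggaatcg

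Among the stress regulators, ATF4 itself stood at 964, 805 and 779.6 CPM in BicR under DHT, bicalutamide and ethanol. In LNCaP it stood at 880.5, 739 and 1296 CPM in the same order of treatments. LNCaP ethanol was thus the highest library and LNCaP bicalutamide the lowest, 1.75-fold apart, with DHT above bicalutamide in both lines. ATF3, a partner factor that ATF4 turns on, had 198, 161 and 143 CPM in BicR, against 188, 147 and 467 CPM in LNCaP. DDIT3, the factor known as CHOP, had 132, 93.8 and 89.6 CPM in BicR, against 132, 88.4 and 256 CPM in LNCaP. For both genes the LNCaP ethanol library lay far above 5 libraries that differed less among themselves. TRIB3, a pseudokinase that binds ATF4 and holds it back, had 583, 381 and 349.8 CPM in BicR, against 524, 424 and 867 CPM in LNCaP. CHAC1, an enzyme that degrades glutathione and one of the genes with the printed element, had 95.6, 69.7 and 64.7 CPM in BicR, against 109, 78.8 and 149 CPM in LNCaP. In these 4 targets, as in ATF4, DHT lay above bicalutamide in both lines.

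The counts behind these levels are large, so counting error is small beside the differences. In BicR the DHT to ethanol ratio was 1.67 for TRIB3 (95% counting interval 1.64 to 1.70), 1.48 for DDIT3 (1.42 to 1.54) and 1.24 for ATF4 (1.22 to 1.25). Such intervals are exact, condition on the summed count and reflect the sampling of reads alone, with no allowance for differences between cultures. In LNCaP the DHT to ethanol ratio was 0.605 for TRIB3, 0.517 for DDIT3, 0.402 for ATF3 and 0.679 for ATF4. Against bicalutamide the LNCaP DHT ratio turned to 1.24 for TRIB3, 1.50 for DDIT3, 1.28 for ATF3 and 1.19 for ATF4.

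The other regulators followed less closely. CEBPB, a C/EBP partner of ATF4, had 128, 111 and 107 CPM in BicR, against 231, 124 and 248 CPM in LNCaP, so LNCaP DHT was close to LNCaP ethanol. NUPR1, a small stress-induced chromatin protein, was alike in this, with an LNCaP DHT to bicalutamide ratio of 1.81 (95% counting interval 1.77 to 1.86) and a DHT to ethanol ratio of 1.05. CEBPG, another C/EBP partner, was the regulator with the narrowest range over the 6 libraries, 1.50-fold, and its maximum was in BicR DHT. ATF5, which like ATF4 is translated more under eIF2 phosphorylation, and SESN2, a leucine sensor that restrains mTORC1, were both highest in LNCaP ethanol, at 138 and 279 CPM.

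Serine synthesis gave a different picture. PHGDH, the enzyme that starts the pathway from a glycolytic intermediate, had 953, 855 and 847 CPM in BicR, against 1089, 966 and 1163 CPM in LNCaP, with all BicR libraries below all LNCaP libraries. PSAT1, the next enzyme, had 1437, 1287 and 1084 CPM in BicR, against 705, 926 and 845 CPM in LNCaP, with all BicR libraries above all LNCaP libraries. PSPH, which completes serine, ranged from 78.7 to 95.9 CPM in BicR and from 49.6 to 61.3 CPM in LNCaP. The first enzyme and those after it were therefore ordered oppositely between the lines. Such an order is common, with all BicR above all LNCaP libraries for 16.6% of all genes and below for 16.8%. None of these enzymes passed between the lines by edgeR's quasi-likelihood test (adjusted p of 0.392 for PHGDH, 0.12 for PSAT1 and 0.0641 for PSPH). The spread of PHGDH over all libraries was 1.37-fold and that of PSAT1 2.04-fold.

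MTHFD2, an enzyme of the mitochondrial folate cycle, had 633, 488 and 420.2 CPM in BicR, against 272, 320.2 and 314 CPM in LNCaP. Its BicR DHT to ethanol ratio was 1.51 (95% counting interval 1.48 to 1.53), and in LNCaP that ratio was 0.866. PCK2, the mitochondrial enzyme that makes phosphoenolpyruvate, had 1049, 792 and 653 CPM in BicR, against 949.6, 729 and 1303 CPM in LNCaP. It shared the order of ATF4 in LNCaP, while MTHFD2 did not. ASNS, which makes asparagine and is the classical marker of the response, had 576, 462 and 432 CPM in BicR, against 429.6, 436 and 552 CPM in LNCaP. BicR DHT and LNCaP ethanol were its highest libraries, and LNCaP DHT and bicalutamide were within counting error of each other (ratio 0.986, 95% counting interval 0.968 to 1.0).

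Of the remaining synthesis genes, SHMT2, which splits serine to glycine in mitochondria, was highest in LNCaP ethanol at 1371 CPM and lowest in BicR ethanol at 793 CPM. CTH, which makes cysteine from cystathionine, had 68.8 CPM in BicR DHT and 38.1 to 43.0 CPM in the other 5 libraries. CBS, which makes that cystathionine, varied 1.27-fold over the 6 libraries. All BicR libraries lay below all LNCaP libraries (16.8% of all genes), but BicR DHT (302.41 CPM) and LNCaP bicalutamide (302.51 CPM) were nearly equal. ALDH1L2, a mitochondrial folate dehydrogenase, was near the limit of what these libraries could show, with 20, 56 and 26 counts in BicR under DHT, bicalutamide and ethanol and 22, 63 and 70 counts in LNCaP.

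Transporter genes ranged from 1.73-fold to 3.77-fold between their lowest and highest libraries. SLC3A2, the heavy chain that carries several amino acid exchangers to the cell surface, had 441, 339 and 331 CPM in BicR, against 502, 360.3 and 1245 CPM in LNCaP. Its 3.77-fold range was the widest of the 39 members on the CPM scale, and LNCaP ethanol made it. Its light chain partners differed from it and from each other. SLC7A11, the cystine-glutamate exchanger, had 509, 386 and 366 CPM in BicR, against 423, 704 and 526 CPM in LNCaP, so that it was highest under bicalutamide in LNCaP and under DHT in BicR. SLC7A5, the exchanger of large neutral amino acids, had 22.7, 24.4 and 24.0 CPM in BicR, against 37.0, 42.3 and 58.0 CPM in LNCaP, where ethanol was again the highest.

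The neutral amino acid carrier SLC1A4 had 156, 90.4 and 87.4 CPM in BicR, against 66.5, 66.9 and 123 CPM in LNCaP. BicR DHT and LNCaP ethanol were both above the other 4 libraries, which ranged from 66.5 to 90.4 CPM. SLC1A5, the main glutamine carrier, had a BicR DHT to ethanol ratio of 1.81 (95% counting interval 1.77 to 1.85) and an LNCaP ratio of 0.916. SLC38A2, a sodium-coupled carrier of small neutral amino acids, had ratios of 1.64 in BicR and 0.898 in LNCaP for the same contrast. SLC7A1, the carrier of arginine and lysine with the element just after its start, had ratios of 1.34 and 0.682.

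The products of the 10 aminoacyl-tRNA synthetase genes charge tRNA with its amino acid. With TMM scaling all 10 were highest of the BicR libraries under DHT (42.0% of all genes). All 10 were then also lower under DHT than under ethanol in LNCaP (48.4% of all genes). On the RPKM scale EPRS and NARS were not highest in BicR DHT. EPRS had 74.24, 75.62 and 74.49 RPKM in BicR under DHT, bicalutamide and ethanol, and NARS 98.78, 100.3 and 98.81 RPKM. The differences were small. WARS, for tryptophan, varied most, with 621, 521 and 436 CPM in BicR, against 387, 436 and 764 CPM in LNCaP. SARS, for serine, had 475, 415 and 394 CPM in BicR, against 469.6, 430.3 and 721 CPM in LNCaP. IARS, for isoleucine, had 746, 670.0 and 646 CPM in BicR, against 460.3, 670.4 and 773 CPM in LNCaP, so LNCaP DHT was its lowest library. AARS, for alanine, and IARS share the TTGCATCA element printed above, and AARS ranged 1.37-fold, from 1910.0 CPM in LNCaP DHT to 2622 CPM in BicR DHT. GARS, CARS and YARS ranged from 1.32-fold to 1.44-fold over the 6 libraries, and MARS, EPRS and NARS from 1.22-fold to 1.30-fold.

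STC2, a secreted glycoprotein, had 384, 269 and 239.7 CPM in BicR, against 251, 222 and 339 CPM in LNCaP. VLDLR, a lipoprotein receptor known as a target of the response, had 39, 18.3 and 19.5 CPM in BicR, against 10.6, 15.8 and 12.8 CPM in LNCaP. All BicR libraries lay above all LNCaP libraries for VLDLR (16.6% of all genes), and DHT was the highest in BicR and the lowest in LNCaP. VLDLR was the only member to reach 2-fold in a contrast within BicR, at a log2 difference of 1.05 for DHT against bicalutamide.

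With 1 library per line and treatment these contrasts within a line have no replicate check and no test. They are given as differences in log2(CPM + 1), where the added 1 shrinks the change of genes with few reads. For BicR DHT against ethanol the median over the 39 members was 0.42, beside 0.00 over all genes, and 37 members were higher (50.3% of all genes) and 2 lower. Of the 39 members 0 reached 2-fold, which 1.45% of all genes did upward and 0.922% downward. Against bicalutamide the BicR DHT median was 0.29, with 36 members higher (50.7% of all genes) and 1 at 2-fold (1.43% of all genes). Both contrasts share the BicR DHT library. Bicalutamide against ethanol in BicR gave a median of 0.07, with 35 members higher (52.6% of all genes) and 0 at 2-fold in either direction (0.0% of all genes).

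In LNCaP the median for DHT against ethanol was -0.37, with 37 members lower (48.4% of all genes) and 2 of them, ATF3 and SLC3A2, at 2-fold (1.19% of all genes). The median for bicalutamide against ethanol was -0.34, with 31 members lower (48.5% of all genes) and 4, namely ATF3, DDIT3, TRIB3 and SLC3A2, at 2-fold (1.52% of all genes). These contrasts share the LNCaP ethanol library. With total counts in place of TMM the median of all genes in the bicalutamide contrast was 0.15, against 0.01 with TMM, and that of the members -0.18, and TRIB3 no longer reached 2-fold, nor did it on the RPKM scale. In LNCaP DHT against bicalutamide the members' median was -0.01, with 18 higher (49.3% of all genes) and 21 lower (50.7% of all genes), and 0 reached 2-fold, which 1.58% of all genes did upward and 0.893% downward.

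**Figure D2:**
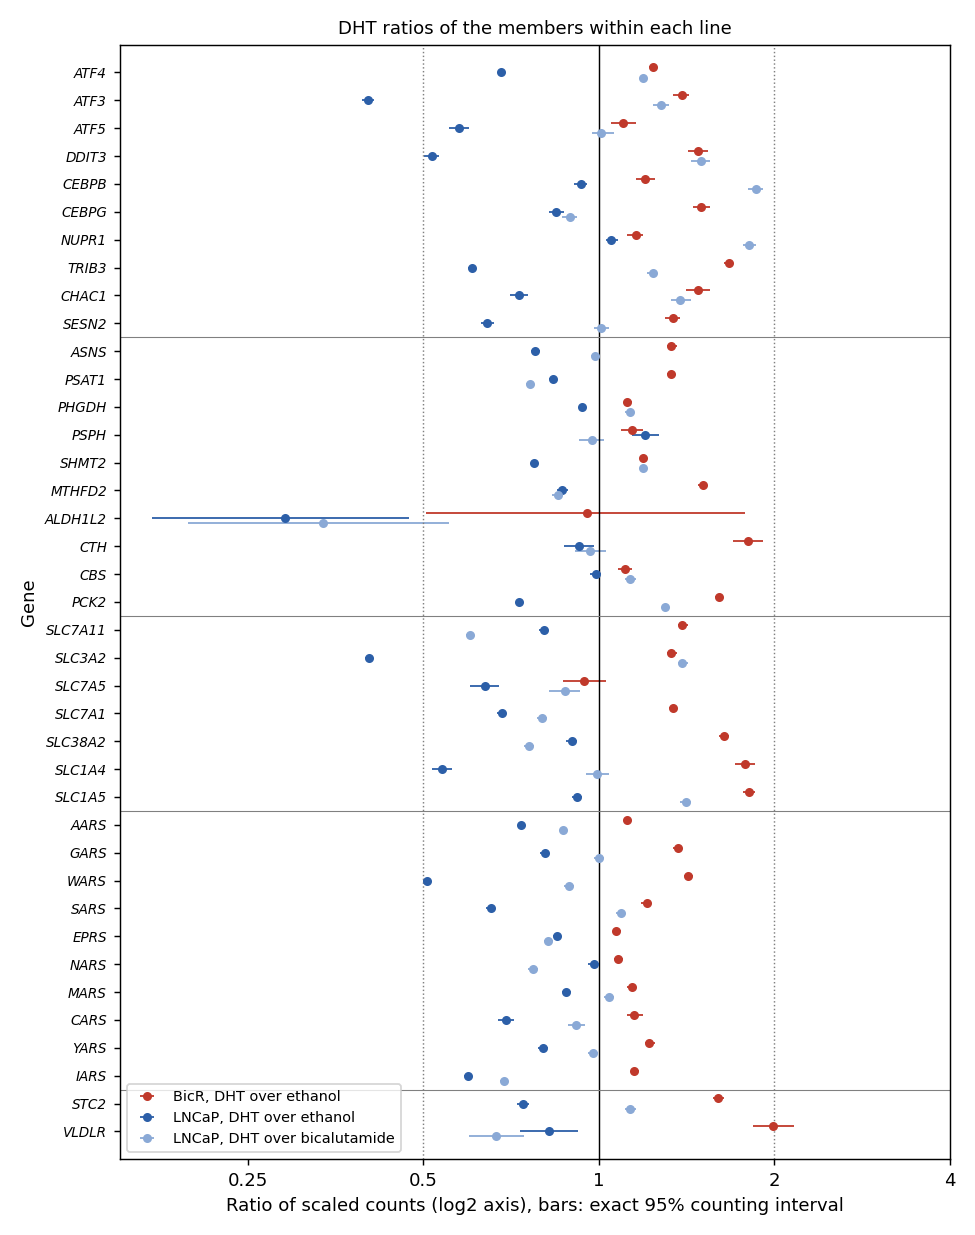
Ratio of scaled counts for each member on a log2 axis, with exact 95% counting intervals as bars, for DHT over ethanol in BicR (red), DHT over ethanol in LNCaP (dark blue) and DHT over bicalutamide in LNCaP (light blue). Red points lie above 1 for 37 of 39 members and dark blue points below 1 for 37, while light blue points split into 18 above and 21 below.

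The lists differed in that last contrast. In LNCaP DHT against bicalutamide, 9 of 10 stress regulators were higher, with a median of 0.33, and CEBPG was the exception. In the same contrast 8 of 10 tRNA synthetases were lower, with a median of -0.15, as were 5 of 7 transporters (median -0.19) and 6 of 10 synthesis enzymes (median -0.03). In BicR DHT against bicalutamide the medians were 0.29 for regulators, 0.23 for synthesis enzymes, 0.40 for transporters and 0.17 for synthetases. Against ethanol the BicR DHT medians were 0.45, 0.33, 0.48 and 0.21 for these lists in the same order, and the LNCaP DHT medians were -0.59, -0.23, -0.55 and -0.38.

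Treatment effects common to both lines were tested with edgeR's quasi-likelihood test in a model of line plus treatment, in which the disagreement of the lines is the error. For DHT against ethanol 0 of 39 members passed an adjusted p of 0.05, against 0.166% of all genes, the lowest adjusted p was 0.974, and 0 members had an unadjusted p below 0.05. The members' median fitted log2 fold change was 0.00, with 19 positive and 20 negative. For bicalutamide against ethanol 0 of 39 passed, against 0.0% of all genes. The lowest adjusted p was 0.996, and 1 member, SLC3A2, had an unadjusted p below 0.05. For DHT against bicalutamide 0 of 39 passed, against 0.166% of all genes. Here 30 of 39 members were positive with a median of 0.16, beside 0.0 over all genes. The lines did not share this shift. Within BicR 36 members were higher (50.7% of all genes), with a median of 0.29. Within LNCaP 18 were higher (49.3% of all genes) and 21 lower, with a median of -0.01. NUPR1 (0.56, SE 0.23, higher) and ALDH1L2 (-1.41, SE 0.51, lower) had an unadjusted p below 0.05, with adjusted p of 0.676 and 0.631. Of all 13885 genes, 381 were higher and 401 lower at an unadjusted p below 0.05 for DHT against ethanol. These were 52 and 89 for bicalutamide against ethanol, and 483 and 504 for DHT against bicalutamide. By DESeq2 the count of members called was likewise 0 in each of these 3 contrasts.

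Whether the DHT response differed between the lines was tested by joining ethanol and bicalutamide as the androgen-poor state of each line, so that their difference served as the error. The fitted difference, BicR response minus LNCaP response, was positive for 37 of 39 members (50.5% of all genes), with CEBPB and NUPR1 negative, and its median was 0.60, beside 0.01 over all genes. CEBPB, at -0.08, turned to 0.34 without LNCaP bicalutamide. By edgeR's quasi-likelihood test 0 of 39 members passed after adjustment, against 0.0% of all genes. At an unadjusted p below 0.05 there were 9 members, all positive, against 5.33% of all genes for that direction. These were VLDLR (1.49, SE 0.29, adjusted p = 0.353), CTH (0.89, SE 0.22, adjusted p = 0.383), SLC38A2, IARS, SLC7A1, SLC7A11, MTHFD2, CEBPG and SLC1A4. The fitted difference was larger for ATF3 (1.09) and SLC3A2 (1.08) than for CTH, but so was the error, at an SE of 0.89 and 0.94. By DESeq2 the count called was 1, VLDLR, against 1.08% of all genes.

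Between the lines over the 3 treatments, 1 of 39 members passed, against 4.42% of all genes. It was SLC7A5, with 22.7, 24.4 and 24.0 CPM in BicR under DHT, bicalutamide and ethanol, against 37.0, 42.3 and 58.0 CPM in LNCaP. SLC7A5 was lower in all BicR than in all LNCaP libraries, as were 16.8% of all genes. Its log2 fold change was -0.93 (SE 0.17, adjusted p = 0.0237 by edgeR's quasi-likelihood test), lower in BicR in 3 of 3 treatments. Leaving out any of the ethanol or bicalutamide libraries ended the call, with adjusted p of 0.0635 without BicR ethanol, 0.0695 without LNCaP ethanol, 0.101 without BicR bicalutamide and 0.102 without LNCaP bicalutamide. SLC7A5 has near-identical copies between which reads could have been split, of which SLC7A5P1 had 18 to 35 counts and SLC7A5P2 52 to 112 counts per library, against 952 to 2903 for SLC7A5.

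Members next in that test did not pass. PSPH had a log2 fold change of 0.60 (adjusted p = 0.0641), MTHFD2 0.75 (adjusted p = 0.0732), CEBPB -0.75 (adjusted p = 0.0836), VLDLR 0.89 (adjusted p = 0.115) and PSAT1 0.62 (adjusted p = 0.12), all by edgeR's quasi-likelihood test. All BicR libraries lay above all LNCaP libraries for 4 members, PSAT1, PSPH, MTHFD2 and VLDLR, against 16.6% of all genes. All lay below for 3 members, PHGDH, CBS and SLC7A5, against 16.8% of all genes.

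**Figure D3:**
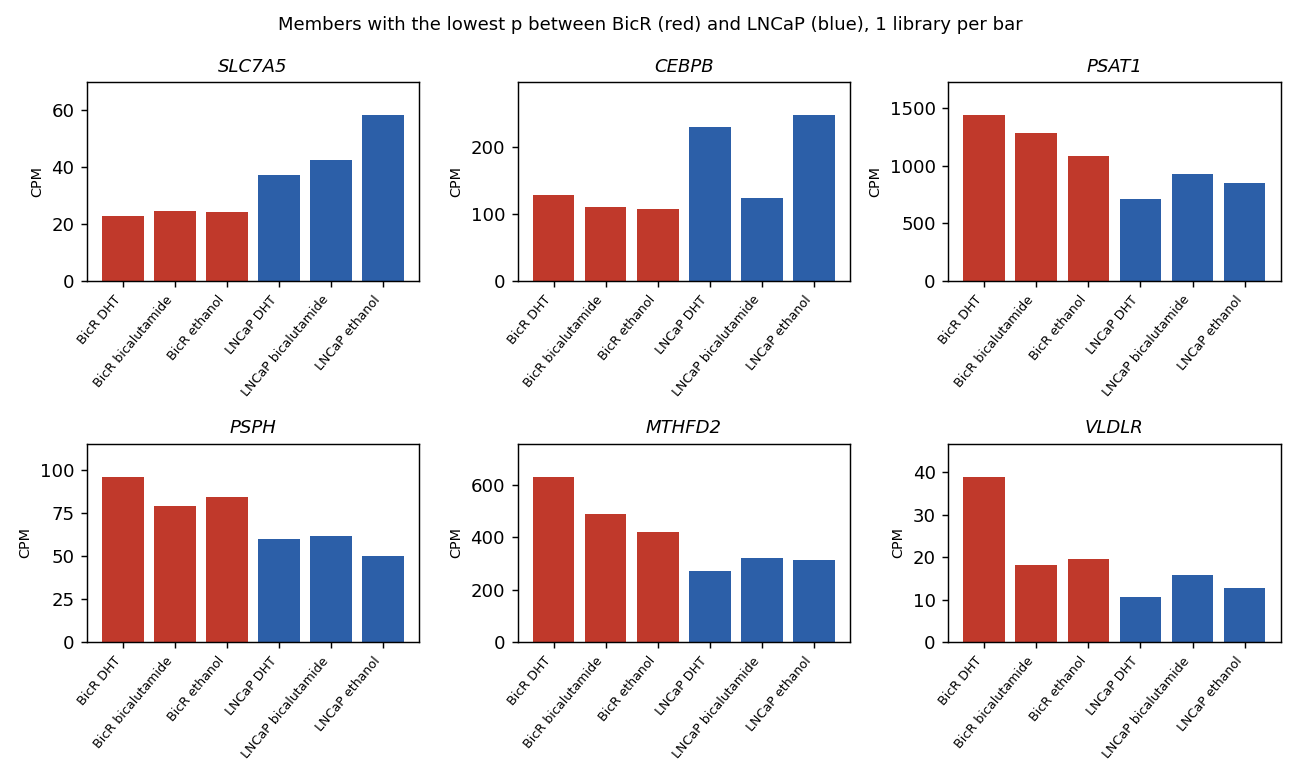
CPM of 6 members in each library, for the members with the lowest p between the lines (bars, 1 library each, axes from 0; red, BicR; blue, LNCaP). SLC7A5, the only one that passed, is at 22.7 to 24.4 CPM in BicR and 37.0 to 58.0 CPM in LNCaP, while for CEBPB the BicR DHT bar exceeds the LNCaP bicalutamide bar.

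The lines were also compared treatment by treatment, with 1 library each and no test. Under DHT the median of the members was 0.21 for BicR against LNCaP, with 29 higher in BicR (50.5% of all genes) and 4 at 2-fold higher (2.81% of all genes). Under bicalutamide it was 0.00, with 19 higher in BicR (49.6% of all genes). Under ethanol it was -0.49, with 33 lower in BicR (50.1% of all genes) and 8 at 2-fold lower (3.88% of all genes). With total counts in place of TMM the ethanol median of the members was -0.30 and that of all genes 0.17. All 10 synthetases were higher in BicR under DHT, and all 10 regulators were lower in BicR under ethanol, with a median of -1.15 for the regulators.

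Genes of the pathway outside the 39 were read from lists of other ATF4 targets, of tRNA synthetases not counted as targets, and of endoplasmic reticulum stress. Of 24 other reported ATF4 targets 0 passed in either treatment contrast with ethanol or in the contrast of DHT with bicalutamide. Of all genes 0.0% to 0.166% passed in these contrasts. Between the lines 5 targets passed (4.42% of all genes), 1 higher and 4 lower in BicR. BCAT1, which starts the breakdown of branched-chain amino acids, had 19.6, 20.3 and 18.3 CPM in BicR under DHT, bicalutamide and ethanol, against 5.19, 9.04 and 8.84 CPM in LNCaP (log2 fold change 1.37, adjusted p = 0.0149 by edgeR). The stress hormone FGF21 had 0.98, 1.04 and 1.15 CPM in BicR, against 4.73, 4.02 and 11.9 CPM in LNCaP (log2 fold change -2.54, adjusted p = 0.00573 by edgeR). INHBE, an activin subunit, was lower in BicR by a log2 fold change of -1.37 (adjusted p = 0.0111 by edgeR).

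GDF15, a stress cytokine, had 933, 722 and 683 CPM in BicR, against 2350.1, 1028 and 2449.7 CPM in LNCaP (log2 fold change -1.23, adjusted p = 0.043 by edgeR), and its call was lost without either DHT library. HMOX1, the heme-degrading enzyme, had 29.5, 34.5 and 47.4 CPM in BicR, against 69.7, 60.7 and 78.2 CPM in LNCaP (log2 fold change -0.92, adjusted p = 0.0219 by edgeR), and its call was lost without LNCaP DHT. Without either bicalutamide library 0 genes of the whole table were called between the lines by edgeR. At an unadjusted p below 0.05 there were then still 1501 higher and 2100 lower without LNCaP bicalutamide, and 1495 higher and 2123 lower without BicR bicalutamide. The DHT library lay above ethanol in BicR and below it in LNCaP for 13 of the 24 targets (24.2% of all genes). BicR DHT was the highest BicR library for 14 of 24 (42.0% of all genes). In the within-line contrasts the 24 targets had medians of 0.14 for BicR DHT against ethanol, -0.17 for LNCaP DHT against ethanol and 0.15 for LNCaP DHT against bicalutamide. With total counts these medians were 0.06, -0.09 and 0.07 in the same order, beside -0.07, 0.08 and -0.08 over all genes.

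Synthetases outside the set stood differently from the 10 members in the DHT contrasts with ethanol, though this difference was not tested. By highest library the other cytosolic ones were not set apart. LNCaP ethanol or BicR DHT held the maximum for 6 of these 7 and for 8 of 10 member synthetases (41.8% of all genes). For mitochondrial synthetases it was 6 of 17. With TMM scaling BicR DHT was the highest BicR library for 4 of the 7 and for all 10 members (42.0% of all genes). The 7 other cytosolic synthetases had medians of 0.12 for BicR DHT against ethanol and 0.08 for LNCaP DHT against ethanol. With total counts these were 0.04 and 0.15. With TMM scaling 0 of 7 showed the opposition of the lines that all 10 member synthetases showed (24.2% of all genes). On the RPKM scale the members EPRS and NARS did not show it. Nor, by CPM, did TARS, LARS and VARS, synthetases counted among the 24 other targets. Their BicR DHT and ethanol levels were 429.2 and 436.0, 210.5 and 240.5, and 190.4 and 191.45 CPM. RARS, for arginine, had 103, 95.2 and 92.4 CPM in BicR, against 75.1, 94.3 and 63.0 CPM in LNCaP, where ethanol was the lowest. FARSA, a subunit for phenylalanine, had 139, 143 and 145 CPM in BicR, against 189, 136 and 207 CPM in LNCaP. The 17 mitochondrial synthetases had medians of -0.02 in both DHT contrasts with ethanol, which with total counts were -0.10 in BicR and 0.06 in LNCaP. The member synthetases' BicR median of 0.21 was 0.12 with total counts.

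Endoplasmic reticulum genes lay in the same directions as the members. The 21 genes of that list had a median of 0.36 for BicR DHT against ethanol and -1.27 for LNCaP DHT against ethanol, where 16 of 21 were at 2-fold lower (1.19% of all genes). Of the 21, 20 showed the opposition of the lines (24.2% of all genes). HSPA5 had 1645, 1274 and 1245 CPM in BicR, against 1347, 1435 and 8595 CPM in LNCaP. MANF, a secreted stress factor of that compartment, had 134, 80.7 and 83.3 CPM in BicR, against 172, 82.0 and 479 CPM in LNCaP. In LNCaP DHT against bicalutamide the list had a median of -0.06, beside 0.33 for the 10 stress regulators of the set. By edgeR's quasi-likelihood test 0 of the 21 passed in any contrast (0.0% to 4.42% of all genes, by contrast). At an unadjusted p below 0.05 there were 6 for bicalutamide against ethanol (HSPA5, SDF2L1, MANF, PDIA4, CRELD2 and CALR, all with negative values). There were 1 for DHT against ethanol, 2 between the lines and 3 for the line difference in the DHT response. Of all 13885 genes, 52 were higher and 89 lower at that threshold for bicalutamide against ethanol, and 381 and 401 for DHT against ethanol. Between the lines these were 1476 and 1969, and for the difference in response 740 and 688. SDF2L1, a chaperone partner in that compartment, was called lower in BicR than in LNCaP by DESeq2 (log2 fold change -1.26, adjusted p = 0.00145), and by edgeR with total counts (adjusted p = 0.0214) or without a filter (adjusted p = 0.0123). ERO1LB, an oxidase that serves disulfide formation, was called lower in BicR by edgeR without BicR DHT (-0.88, adjusted p = 0.0448) or without LNCaP DHT (-0.88, adjusted p = 0.0464).

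**Figure D4:**
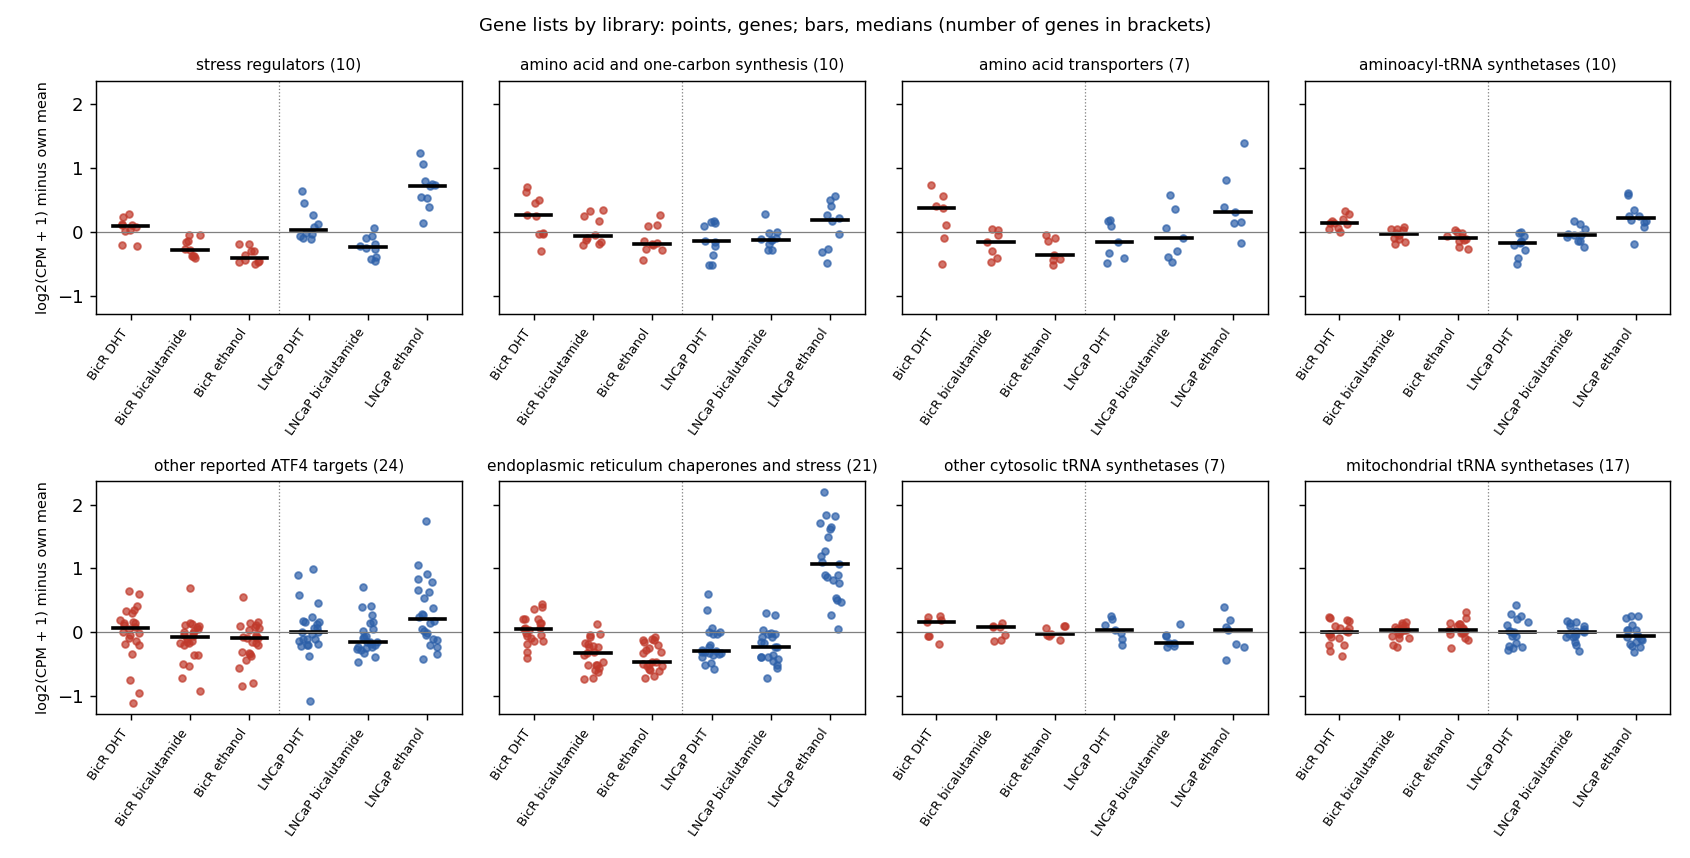
Points are genes and bars are medians of log2(CPM + 1) minus the gene's own mean over the 6 libraries, for the 4 larger member lists (top) and 4 other lists (bottom), by library (red, BicR; blue, LNCaP). In LNCaP ethanol the median is 0.72 for the stress regulators and 1.07 for the endoplasmic reticulum list, against 0.22 for the member synthetases and -0.07 for the mitochondrial synthetases.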

How the data were processed

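RNA sequencing of 6 libraries (2 lines by 3 treatments, SOLiD 3 Plus, total RNA, per the labels' protocols) was analysed from the deposited table. The series' design line names short RNA and miRNAs, whereas the table is by gene symbol, so whether the RNA was size-selected is not settled. It held raw counts per gene symbol and RPKM values that the authors scaled to gene length and depth, per the file headers. Per the submitters' processing notes, hg19 was the genome build. No aligner, annotation, use of strand or handling of reads with several matches is stated in the labels or headers, so reads of overlapping genes and near-identical copies cannot be told apart.

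From the counts, genes with a mean of at least 20 were tested in edgeR 4.0.16 (R 4.3.3) after TMM scaling, 2-sided, with Benjamini-Hochberg adjustment over the 13885 genes at 0.05. The model of line plus treatment left 2 residual degrees of freedom, and so did that of the line difference in the DHT response. Standard errors are the log2 fold change over the square root of F. Nothing in the labels says that a library pools cultures, and the p-values rest on the spread of these 6 libraries alone. CPM was computed from the counts with a pseudocount of 1 on the log2 scale, and RPKM served to order genes per length and as an alternative. Alternatives were DESeq2 1.42.0 and its size factors, limma 3.58.1 (voom), total counts, no filter, pseudocounts of 0.1 and 5, and each library left out. The fits were tested on simulated data with larger changes than any member showed within a line. That run does not show how well smaller changes are found.

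The members, lists and tests were chosen with earlier results of these data known. Values in all 6 libraries are given for members that passed a test, for 9 members named in the rule (ATF4, ATF3, DDIT3, TRIB3, CHAC1, ASNS, PSAT1, PHGDH, SLC7A11) and for the 3 with the widest range per list. Other pathway genes were named if they passed a test or had the 2 widest ranges of their list, and CEBPB, NUPR1 and AARS were added after their values were seen. Symbols are those of the table, and RefSeq sequences were matched by symbol or older symbol for 16 of 39 members. CASTOR1, CASTOR2, NPRL2 and NPRL3 of the amino acid sensing list were not found under those symbols.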

Additional observations from a re-analysis of the deposited data

Results flagged for a closer look

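The DHT contrast with ethanol ran opposite ways in the lines. The median log2 difference over the 39 members was 0.42 in BicR and -0.37 in LNCaP, with 37 of 39 members higher under DHT in BicR and 37 of 39 lower in LNCaP. The difference between these medians was not tested, since each line has 1 library per treatment. Per gene, the test of the difference between the lines with ethanol and bicalutamide joined as the androgen-poor state called 0 of 39 members. The LNCaP ethanol library also held the highest endoplasmic reticulum gene levels, 31344 CPM in sum against 8767 to 11708 CPM in the other libraries, and the part of this in the result was not tested. Without that library the LNCaP median, DHT against bicalutamide, was -0.01.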

How the results depend on the processing

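Leaving out 1 library at a time, the members called numbered 0 to 2 for DHT against ethanol, 0 to 3 for bicalutamide against ethanol, 0 for DHT against bicalutamide, 0 to 3 between the lines and 0 to 33 for the line difference in the DHT response. Without BicR ethanol, ATF3 (-1.33) and SLC3A2 (-1.34) were called lower for DHT against ethanol (1.98% of all genes called), and ATF3 (-1.66), DDIT3 (-1.51) and SLC3A2 (-1.76) lower for bicalutamide against ethanol (1.41%). The contrast then rests on the LNCaP ethanol library alone. For the difference in DHT response, 33 members were called higher without LNCaP bicalutamide (33.2% of all genes called), and without LNCaP ethanol 23 were called (45.3%), of which 21 were higher and CEBPB and NUPR1 lower. CEBPB, at -0.08 with all libraries, was 0.34 (called) without LNCaP bicalutamide and -0.66 (called) without LNCaP ethanol. In these fits the error rests on the BicR ethanol and bicalutamide pair alone. Without either DHT library that difference could not be fitted. Between the lines 4 members were called with total counts (7.49%), 5 without a filter (7.34%) and 6 by DESeq2 (10.7%). SLC7A5 stayed lower in BicR, by -1.04 to -0.75 with a library left out. DESeq2 called 1 member for the difference in response. VLDLR did not reach 2-fold in BicR DHT against bicalutamide with total counts, RPKM or a pseudocount of 5 (0 members each). With a pseudocount of 0.1, 1 member, ALDH1L2, reached 2-fold higher in BicR bicalutamide against ethanol, 2-fold lower in BicR DHT against bicalutamide and 2-fold lower in LNCaP DHT against bicalutamide. It then also joined ATF3 and SLC3A2 at 2-fold lower in LNCaP DHT against ethanol, which made 3 members. Highest within BicR under DHT, highest within LNCaP under ethanol or opposed between the lines were 35, 27 and 33 members with total counts. Of 13885 genes these were then 4269, 2585 and 2093. On the RPKM scale they were 33, 27 and 32 members, and 3809, 3209 and 2178 genes. These alternatives were chosen after seeing the data. LNCaP ethanol was the highest of all 6 libraries for 18 members with total counts (1785 genes) and 20 on the RPKM scale (2282 genes). No paired analysis was possible because the labels give no replicate numbers to pair by, and the model of line plus treatment already matches the lines by treatment. The main limits are 1 library per line and treatment, the LNCaP ethanol library on which all LNCaP contrasts with ethanol rest, and low counts for ALDH1L2.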

Other observations

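The kinases and subunits of eIF2, which act before ATF4, kept a similar summed level. The 12 genes of that list summed to 2209, 2207 and 2159.9 CPM in BicR under DHT, bicalutamide and ethanol, and 2031, 2148 and 2109.5 CPM in LNCaP. Of the 12 genes 0 passed a test (0.0% to 4.42% of all genes, by contrast). EIF2AK3, the kinase PERK of the endoplasmic reticulum, had 85.0, 59.3 and 59.3 CPM in BicR, against 44.6, 53.6 and 80.6 CPM in LNCaP. PPP1R15A, the phosphatase subunit that reverses eIF2 phosphorylation and is itself an ATF4 target, had 8.94, 10.7 and 9.33 CPM in BicR, against 11.7, 10.8 and 22.8 CPM in LNCaP. It was thus highest in LNCaP ethanol and, in contrast to most members, not higher under DHT in BicR (DHT to ethanol ratio 0.958, 95% counting interval 0.835 to 1.10).

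Of 5 tested genes around mTORC1, the kinase complex that senses amino acids, only SESN3 passed between the lines (4.42% of all genes). Its log2 fold change was 0.84 (adjusted p = 0.031 by edgeR), and the call was lost when any 1 library was left out. SESN3, a relative of the member SESN2, had 129, 218 and 204 CPM in BicR, against 71.6, 145 and 96.4 CPM in LNCaP. Its DHT library was the lowest in both lines, whereas SESN2 was highest in BicR under DHT. MTOR, the kinase itself, had 289, 149 and 145 CPM in BicR, against 107, 142 and 135 CPM in LNCaP, a DHT to ethanol ratio of 2.0 in BicR and 0.795 in LNCaP. Among mitochondrial synthetases, LARS2 had 78.7, 84.0 and 93.5 CPM in BicR, against 61.7, 73.6 and 64.6 CPM in LNCaP. SARS2 had 12.3, 15.4 and 13.5 CPM in BicR, against 21.9, 16.3 and 19.5 CPM in LNCaP.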
